A study of Mus musculus with 20 samples.

Results

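The colony-stimulating factors and their receptors were followed by RNA-seq in mouse bone marrow-derived macrophages. They are 8 genes, taken from the deposited table of 17787 genes by an exact match of the symbol. The ligand genes are Csf1, Csf2 and Csf3, and the receptor genes are Csf1r, Csf2ra, Csf2rb, Csf2rb2 and Csf3r. All 8 had a row in the table. The macrophages came from male C57BL/6J mice and had been differentiated in medium that held supernatant of L929 cells, a fibroblast line used as a source of CSF1 protein. They received 50 nM Brg1 siRNA or 50 nM control siRNA for 48 h in serum-free medium, with a single siRNA product per arm. BRG1, encoded by Smarca4, is an ATPase of the SWI/SNF chromatin remodelling complex. For the last 6 h, cells of each siRNA arm received dexamethasone (Dex, 1 µM) with lipopolysaccharide (LPS, 100 ng/ml), LPS with ethanol, or vehicle (ethanol and buffered saline). The Dex+LPS groups had 4 libraries each, and the LPS and vehicle groups had 3 libraries each for either siRNA, 20 libraries in all.

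Each library held 13694895 to 18707709 reads over the listed genes. Smarca4 stood at 413.6 to 518.0 normalized counts with Brg1 siRNA and 1745 to 2181 with control siRNA under Dex+LPS, at 559.5 to 620.9 and 2751 to 2990 under LPS, and at 340.2 to 365.2 and 1476 to 1626 in vehicle. All 8 macrophage markers checked, among them Cd68, Adgre1 and Mertk, were present in every group. In the labels, 4 libraries carry numbers of a higher series than the rest, 1 in each LPS and each Dex+LPS group and none in vehicle; what the series stands for was not stated. The labels do not say whether the libraries of a group came from separate animals or cultures, and the spread behind every p-value here is that between the libraries, which may be no more than technical. In bulk samples such as these, fewer cells of a type and less RNA per cell cannot be told apart.

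CSF1 acts through the receptor tyrosine kinase CSF1R and is the main survival and differentiation factor of macrophages. GM-CSF, the product of Csf2, binds an alpha chain encoded by Csf2ra, which pairs with the beta common chain encoded by Csf2rb. The mouse has a second beta chain, encoded by Csf2rb2, that serves interleukin-3. G-CSF, the product of Csf3, acts through CSF3R and is best known for driving the production of neutrophils. Activated macrophages make GM-CSF and G-CSF after Toll-like receptor stimulation, and glucocorticoids such as dexamethasone are known to repress many such cytokine genes.

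The promoters of Csf1 and Csf2 are shown because these were the ligand genes that were higher with Brg1 siRNA under both LPS and Dex+LPS. The sequences are RefSeq's on GRCm38.p6 and give the 250 bases before the RefSeq start, on the gene's own (minus) strand. RefSeq promoters were matched for 5 of the 8 genes (Csf1, Csf2, Csf2ra, Csf2rb2 and Csf3r). In the Csf1 promoter, at chr3:107760470-107760719, capitals mark matches to the NF-kB motif letters (GGGA, then any 4 bases, then CC) on either strand. There are 3 matches, of which 2 overlap. In the Csf2 promoter, at chr11:54249900-54250149, capitals mark the match to the C/EBP motif letters TTGCNNAA.
Csf1: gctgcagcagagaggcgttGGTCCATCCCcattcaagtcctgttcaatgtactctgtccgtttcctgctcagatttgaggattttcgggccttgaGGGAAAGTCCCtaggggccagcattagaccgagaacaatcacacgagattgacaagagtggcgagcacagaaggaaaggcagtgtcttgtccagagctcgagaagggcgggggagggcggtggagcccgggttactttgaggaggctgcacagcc
Csf2: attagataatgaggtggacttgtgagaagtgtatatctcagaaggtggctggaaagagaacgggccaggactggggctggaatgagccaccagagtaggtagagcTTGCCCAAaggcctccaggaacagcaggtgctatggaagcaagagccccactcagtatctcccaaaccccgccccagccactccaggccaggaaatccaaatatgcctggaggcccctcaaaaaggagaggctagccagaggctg
The only NF-kB match in the Csf2 window lies after the RefSeq start, at chr11:54249868-54249877, and reads GGGAAAGGCC. The RefSeq start of Csf2 lies 232 bases upstream of the start in the GENCODE annotation, at 54249667. The whole window, with the bases after the RefSeq start, therefore lies upstream of the GENCODE start. The bases next to the GENCODE start were not searched for motifs. Among 32544 mouse promoters of 300 bases, 20.8% held the NF-kB letters and 10.8% held the C/EBP letters. The Csf3r promoter held a match to the NF-kB letters and a match to the PU.1 letters GAGGAA, which 28.1% of promoters held. The RefSeq start of Csf3r lies 109 bases downstream of the GENCODE start. Its PU.1 match, at positions -86 to -81 from the RefSeq start, therefore lies after the GENCODE start. The Csf2ra and Csf2rb2 promoters each held 2 PU.1 matches. No match to the AP-1 letters TGANTCA or the glucocorticoid receptor letters ACANNNTGT was found in the 5 windows; 7.79% and 6.83% of promoters held these letters. Both strands were searched for each motif, and a match is a description of letters only.

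The knockdown question was whether the genes differed between Brg1 siRNA and control siRNA within each treatment. Csf1 and Csf2 were higher with Brg1 siRNA under LPS and Dex+LPS, and Csf3 under LPS. The genes for the CSF1 receptor and both beta chains were slightly lower in vehicle and under Dex+LPS. The receptor gene Csf3r was higher with Brg1 siRNA under all 3 treatments. Under Dex+LPS, 3 of the 8 genes were higher (Csf1, Csf2 and Csf3r) and 3 were lower (Csf1r, Csf2rb and Csf2rb2) at an adjusted p under 0.05 in limma; 34.3% of the 12061 genes tested passed, 19% higher and 15.3% lower. Under LPS, 4 were higher (Csf1, Csf2, Csf3 and Csf3r) and 0 were lower, and 33.1% of all genes tested passed, 17.3% higher and 15.8% lower. At an unadjusted p under 0.05 in limma, and in edgeR and DESeq2, 0 of the 8 were lower under LPS as well. In vehicle, where Csf2 and Csf3 gave no usable value, 1 of the other 6 was higher (Csf3r) and 3 were lower (Csf1r, Csf2rb and Csf2rb2), and 20.1% of all genes tested passed, 9.39% higher and 10.8% lower. All 8 genes passed the filter of at least 10 normalized counts in at least 3 libraries, but Csf2 and Csf3 passed it only through the LPS-treated libraries.

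**Figure D1:**
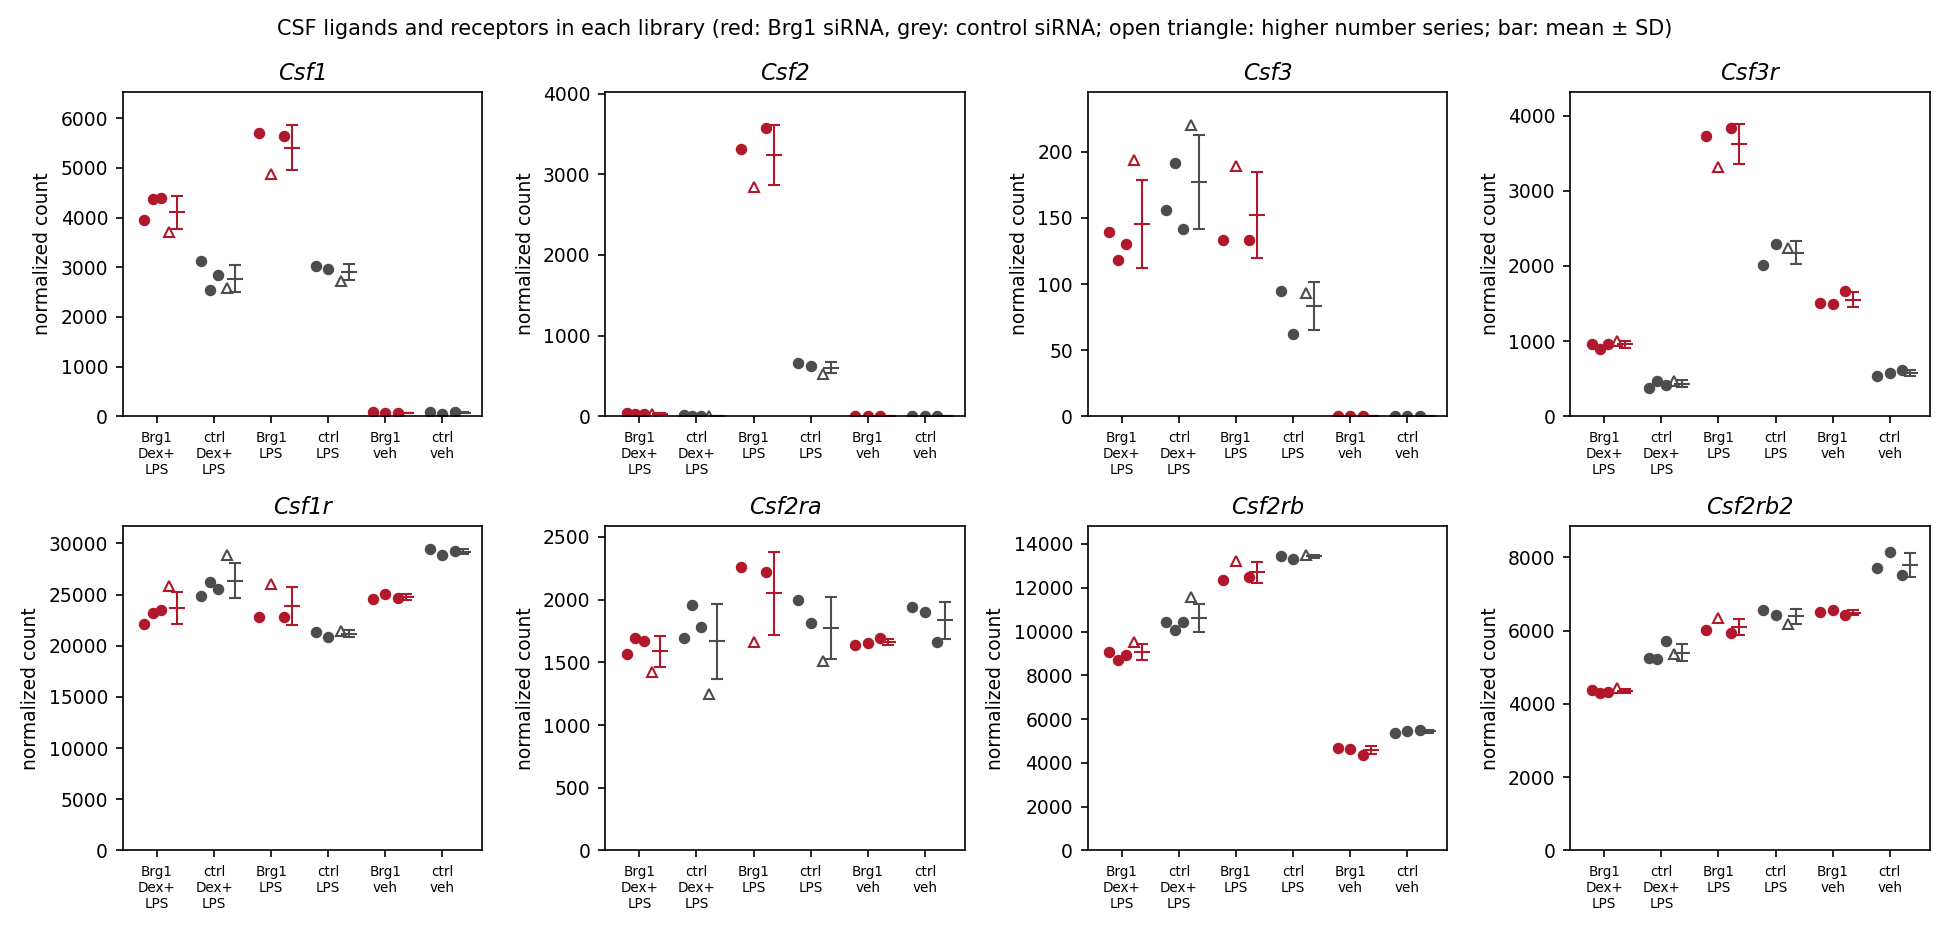
Normalized counts of the 8 genes in each of the 20 libraries, with Brg1 siRNA in red and control siRNA in grey, and a panel per gene with its own linear axis from 0. Open triangles are the 4 libraries with the higher label numbers, and bars give the mean and SD of each group. The Csf3r points with Brg1 siRNA lie above those with control siRNA under every treatment, and the Csf2 points are at or next to 0 in vehicle.

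Csf1 (ENSMUSG00000014599, chromosome 3, 107741048 to 107760469 on GRCm38) encodes the ligand of CSF1R. Under Dex+LPS, Csf1 had 3957, 4367, 4389 and 3700 normalized counts with Brg1 siRNA, against 3119, 2536, 2845 and 2572 with control siRNA. Under LPS, Csf1 had 5705, 4881 and 5641 normalized counts with Brg1 siRNA, against 3029, 2957 and 2729 with control siRNA. In vehicle, Csf1 had 74.94, 71.15 and 69.06 normalized counts with Brg1 siRNA, against 82.02, 54.69 and 83.01 with control siRNA. The siRNA groups did not overlap under Dex+LPS or under LPS, where Brg1 siRNA was high, and they overlapped in vehicle, where both were low. The mean with Brg1 siRNA was 1.86-fold that with control siRNA under LPS (log2 fold change 0.89, SE 0.13, adjusted p in limma 2.86e-05) and 1.48-fold under Dex+LPS (0.57, SE 0.11, adjusted p in limma 0.000545). In vehicle the difference was -0.01 on the log2 scale with a 95% interval of -0.27 to 0.26, and limma did not call it (adjusted p = 0.992).

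Csf2 (ENSMUSG00000018916, chromosome 11, 54247271 to 54249667 on GRCm38) encodes GM-CSF. Under Dex+LPS, Csf2 had 35.46, 28.99, 30.99 and 30.47 normalized counts with Brg1 siRNA, against 9.061, 6.412, 6.105 and 5.356 with control siRNA. Under LPS, Csf2 had 3314, 2842 and 3572 normalized counts with Brg1 siRNA, against 655.0, 620.1 and 528.4 with control siRNA. In vehicle, 0 reads were counted in the 3 libraries with Brg1 siRNA, and 1 read in all in the 3 libraries with control siRNA. The transcript was therefore abundant under LPS, scarce under Dex+LPS and at the detection limit in vehicle, and the siRNA groups did not overlap under Dex+LPS or LPS. Of the 8 genes Csf2 had the largest knockdown difference by log2 fold change under both of these treatments. The mean with Brg1 siRNA was 5.39-fold that with control siRNA under LPS (log2 fold change 2.43, SE 0.23, adjusted p 3.53e-07 in limma) and 4.67-fold under Dex+LPS (2.09, SE 0.20, limma adjusted p = 2.81e-07). On the log2(value + 1) scale the changes of such low values are understated. An antisense gene, Gm12223, overlaps Csf2 and has no row in the table; whether the authors' counting used strand was not stated.

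Csf3 (ENSMUSG00000038067, chromosome 11, 98701263 to 98703629 on GRCm38) encodes G-CSF. Under Dex+LPS, Csf3 had 139.6, 118.2, 130.4 and 193.9 normalized counts with Brg1 siRNA, against 155.9, 191.3, 141.4 and 220.4 with control siRNA. Under LPS, Csf3 had 133.4, 189.4 and 133.0 normalized counts with Brg1 siRNA, against 94.70, 62.47 and 93.06 with control siRNA. In vehicle, Csf3 was at 0 in all 6 libraries. The siRNA groups overlapped under Dex+LPS and did not overlap under LPS. Under LPS the mean with Brg1 siRNA was 1.82-fold that with control siRNA (log2 fold change 0.86, SE 0.23, limma adjusted p = 0.00747). Under Dex+LPS the difference was -0.29 on the log2 scale with a 95% interval of -0.71 to 0.13, and limma did not call it (adjusted p = 0.291). The library with the higher label number had the highest Csf3 value of its group in both Dex+LPS groups and under LPS with Brg1 siRNA.

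Csf3r (ENSMUSG00000028859, chromosome 4, 126024550 to 126044440 on GRCm38) encodes the G-CSF receptor. Under Dex+LPS, Csf3r had 962.0, 889.7, 964.9 and 1007 normalized counts with Brg1 siRNA, against 380.6, 468.1, 413.1 and 467.5 with control siRNA. Under LPS, Csf3r had 3723, 3315 and 3830 normalized counts with Brg1 siRNA, against 2007, 2292 and 2233 with control siRNA. In vehicle, Csf3r had 1501, 1488 and 1670 normalized counts with Brg1 siRNA, against 538.2, 575.1 and 610.8 with control siRNA. Brg1 siRNA was high under every treatment, with no overlap between the siRNA groups. The mean with Brg1 siRNA was 2.21-fold that with control siRNA under Dex+LPS (log2 fold change 1.15, SE 0.08, adjusted p in limma 2.53e-09) and 1.66-fold under LPS (0.73, SE 0.09, limma adjusted p = 4.20e-06). In vehicle it was 2.70-fold (1.43, SE 0.09, limma adjusted p = 2.87e-09). These 3 calls held under all 29 alternative settings.

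Since CSF3R is a receptor of the neutrophil lineage, neutrophil markers stand beside these values. The list had 11 genes, of which 10 had a row and 7 were tested. Their summed level was 549.4 to 636.0 normalized counts with Brg1 siRNA and 403.2 to 532.2 with control siRNA under Dex+LPS, 339.9 to 352.7 and 281.8 to 329.7 under LPS, and 175.9 to 189.8 and 126.4 to 177.4 in vehicle. The sum was thus higher with Brg1 siRNA without overlap under Dex+LPS and LPS, and the groups overlapped in vehicle. Of the 7 tested markers, limma called 1 higher under Dex+LPS (S100a8) and 0 under LPS or in vehicle; at an unadjusted p under 0.05 the counts were 0 under LPS and 2 in vehicle, and edgeR and DESeq2 called 0 in both. Ly6g was at 0 in both LPS groups, in both vehicle groups and under Dex+LPS with Brg1 siRNA, but not under Dex+LPS with control siRNA. Elane was at 0 in both Dex+LPS groups. With control siRNA, Elane was also at 0 under LPS and in vehicle, and Mpo under Dex+LPS and in vehicle. Neither was at 0 in the matching groups with Brg1 siRNA. Of all genes tested, limma called 19% higher under Dex+LPS, 17.3% under LPS and 9.39% in vehicle. The part of the neutrophil markers in the Csf3r result was not tested. Of the 31-base stretches in the Csf3r exons, 23.1% also occur elsewhere among annotated exons, mostly in AC105061.2, which has no row in the table, so some reads may not be specific to Csf3r.

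Csf1r (ENSMUSG00000024621, chromosome 18, 61100598 to 61132149 on GRCm38) encodes the CSF1 receptor. Under Dex+LPS, Csf1r had 22169, 23166, 23513 and 25835 normalized counts with Brg1 siRNA, against 24885, 26192, 25555 and 28828 with control siRNA. Under LPS, Csf1r had 22776, 26041 and 22819 normalized counts with Brg1 siRNA, against 21305, 20820 and 21468 with control siRNA. In vehicle, Csf1r had 24534, 25074 and 24660 normalized counts with Brg1 siRNA, against 29420, 28914 and 29262 with control siRNA. The groups did not overlap in vehicle, where Brg1 siRNA was low, or under LPS, where it was high, and they overlapped under Dex+LPS. In vehicle the mean with Brg1 siRNA was 1.18-fold lower than with control siRNA (log2 fold change -0.24, SE 0.06, limma adjusted p = 0.0120). Under Dex+LPS it fell by 0.16 on the log2 scale (SE 0.06, limma adjusted p = 0.0373). That call was lost without replicate 1, 2 or 3 of the Brg1 siRNA group (limma adjusted p = 0.120, 0.0868 and 0.0741) and without replicate 4 of the control siRNA group (0.124), as well as with no filter on low values (0.0778) and with only the compared groups in the fit (0.155). Under LPS the difference was 0.17 with a 95% interval of 0.03 to 0.30 and a limma adjusted p of 0.0502, so it did not pass. It passed without replicate 1 or 3 of the Brg1 siRNA group under LPS (0.20 and 0.20, limma adjusted p = 0.0457 and 0.0468), replicate 1, 2 or 4 of Dex+LPS with control siRNA (0.0482, 0.0433 and 0.0312) or replicate 1 or 4 of Dex+LPS with Brg1 siRNA (0.0464 and 0.0322). It also passed with the number series as a term in the fit (0.17, SE 0.04, limma adjusted p = 0.00243), with the replicate number as a block (limma adjusted p = 0.0116) and in DESeq2 (adjusted p = 0.0255). The authors' deposited table gives it an adjusted p of 0.0278. The difference did not pass in 19 of the 29 alternative settings. Under plain library totals it was 0.031 (limma adjusted p = 0.789). When every library with a higher label number was dropped, it was 0.114 (limma adjusted p = 0.0783). With single libraries left out in turn, it ran from 0.105 to 0.202, with limma adjusted p from 0.0312 to 0.241. Hmgxb3 overlaps Csf1r on the opposite strand, with 58.64 to 440.7 normalized counts.

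The summed macrophage markers stood higher with Brg1 siRNA in vehicle, where Csf1r was lower. Their summed level was 377439 to 386694 normalized counts with Brg1 siRNA and 275279 to 285421 with control siRNA in vehicle. It was 421105 to 435081 and 305306 to 340674 under Dex+LPS, and 498472 to 512524 and 304949 to 324297 under LPS. The ranges did not overlap under any of the 3 treatments. The 8 markers did not all go one way: limma called 6 higher and 1 lower (Itgam) under Dex+LPS, 6 higher and 1 lower (Itgam) under LPS, and 4 higher and 1 lower (Cd14) in vehicle. Of all genes tested, 19% were called higher and 15.3% lower under Dex+LPS, 17.3% and 15.8% under LPS, and 9.39% and 10.8% in vehicle. The part of the markers in the Csf1r result was not tested.

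Csf2ra (ENSMUSG00000059326, chromosome 19, 61223957 to 61228429 on GRCm38) encodes the GM-CSF binding alpha chain. Under Dex+LPS, Csf2ra had 1564, 1696, 1670 and 1425 normalized counts with Brg1 siRNA, against 1692, 1957, 1778 and 1250 with control siRNA. Under LPS, Csf2ra had 2258, 1665 and 2223 normalized counts with Brg1 siRNA, against 1997, 1813 and 1511 with control siRNA. In vehicle, Csf2ra had 1642, 1651 and 1690 normalized counts with Brg1 siRNA, against 1938, 1903 and 1664 with control siRNA. The siRNA groups overlapped under every treatment, and limma called no knockdown difference. The 95% intervals of the log2 difference were -0.32 to 0.21 under Dex+LPS, -0.10 to 0.51 under LPS and -0.44 to 0.16 in vehicle. In each LPS and Dex+LPS group, the lowest Csf2ra value belonged to the library with the higher label number. With the number series as a term in the fit, the difference under LPS passed (log2 fold change 0.20, SE 0.07, limma adjusted p = 0.0407).

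Csf2rb (ENSMUSG00000071713, chromosome 15, 78325752 to 78353847 on GRCm38) encodes the beta common chain of the GM-CSF, interleukin-3 and interleukin-5 receptors. Under Dex+LPS, Csf2rb had 9047, 8684, 8940 and 9536 normalized counts with Brg1 siRNA, against 10425, 10084, 10417 and 11569 with control siRNA. Under LPS, Csf2rb had 12349, 13240 and 12505 normalized counts with Brg1 siRNA, against 13458, 13335 and 13496 with control siRNA. In vehicle, Csf2rb had 4696, 4657 and 4369 normalized counts with Brg1 siRNA, against 5368, 5453 and 5496 with control siRNA. Brg1 siRNA was low under all 3 treatments, and the siRNA groups did not overlap under any of them, with a gap under LPS that was small beside the spread with Brg1 siRNA. The mean with Brg1 siRNA was 1.17-fold lower than with control siRNA under Dex+LPS (log2 fold change -0.23, SE 0.05, adjusted p 0.000699 in limma) and 1.19-fold lower in vehicle (-0.25, SE 0.05, limma adjusted p = 0.00204). Under LPS the difference was -0.08 with a 95% interval of -0.19 to 0.03, and limma did not call it (adjusted p = 0.258).

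Csf2rb2 (ENSMUSG00000071714, chromosome 15, 78282507 to 78305721 on GRCm38) encodes the interleukin-3 beta chain. Under Dex+LPS, Csf2rb2 had 4380, 4293, 4336 and 4429 normalized counts with Brg1 siRNA, against 5266, 5237, 5727 and 5372 with control siRNA. Under LPS, Csf2rb2 had 6027, 6350 and 5937 normalized counts with Brg1 siRNA, against 6556, 6425 and 6176 with control siRNA. In vehicle, Csf2rb2 had 6505, 6552 and 6414 normalized counts with Brg1 siRNA, against 7718, 8154 and 7520 with control siRNA. Brg1 siRNA was low without overlap under Dex+LPS and in vehicle, and the siRNA groups overlapped under LPS. The mean with Brg1 siRNA was 1.24-fold lower than with control siRNA under Dex+LPS (log2 fold change -0.31, SE 0.04, adjusted p 9.58e-06 in limma) and 1.20-fold lower in vehicle (-0.26, SE 0.05, limma adjusted p = 0.000428). Under LPS the difference was -0.06 with a 95% interval of -0.16 to 0.03, and limma did not call it (adjusted p = 0.309). When the reads were scaled by plain library totals instead of the authors' size factors, both beta chains passed as lower under LPS (log2 fold change -0.22 for Csf2rb and -0.20 for Csf2rb2, limma adjusted p = 0.00857 and 0.00421), while the median of all genes tested was -0.12 in that scaling and 0.01 with the size factors.

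**Figure D2:**
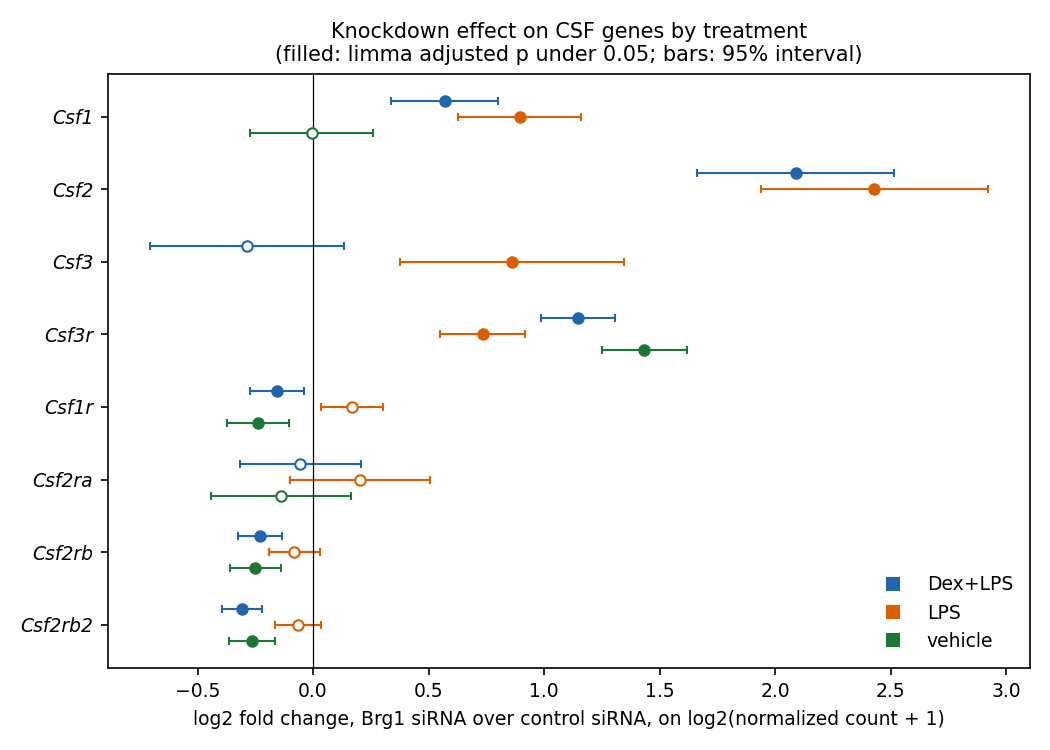
Log2 fold change of Brg1 siRNA over control siRNA for each gene, on log2(normalized count + 1), under Dex+LPS (blue), LPS (orange) and in vehicle (green); bars are 95% intervals and filled points had a limma adjusted p under 0.05. Csf2 and Csf3 have no vehicle point because both siRNA groups were at or next to 0 there, and Csf3r is the only gene with all 3 points filled and to the right of 0.

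The genes for both beta chains neighbour each other on chromosome 15, on opposite strands, 20030 bases apart and with 0 annotated genes between them. Their transcripts are close copies: 19.6% of the 31-base stretches of Csf2rb and 30.1% of those of Csf2rb2 occur in other annotated exons. The split of reads between them is therefore uncertain, and their sum is given as well. The sum averaged 13411 ± 413 normalized counts with Brg1 siRNA and 16024 ± 698 with control siRNA under Dex+LPS (SD, n = 4 each). It averaged 18803 ± 683 and 19815 ± 177 under LPS, and 11064 ± 243 and 13236 ± 323 in vehicle (SD, n = 3 each). The sums did not overlap between the siRNA groups under any treatment and were lower with Brg1 siRNA in each.

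The ratio of Csf2rb to Csf2rb2 in each library set the LPS-treated libraries apart from vehicle, whereas the siRNA groups overlapped. It averaged 2.08 ± 0.0552 with Brg1 siRNA and 1.97 ± 0.140 with control siRNA under Dex+LPS (SD, n = 4 each). Under LPS it averaged 2.08 ± 0.0290 and 2.10 ± 0.0709, and in vehicle 0.705 ± 0.0211 and 0.698 ± 0.0311 (SD, n = 3 each). The ranges of the siRNA groups overlapped under each treatment. All LPS and Dex+LPS libraries lay above all vehicle libraries, so that Csf2rb2 was the more abundant of the pair in normalized counts in vehicle and Csf2rb was the more abundant after LPS.

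**Figure D3:**
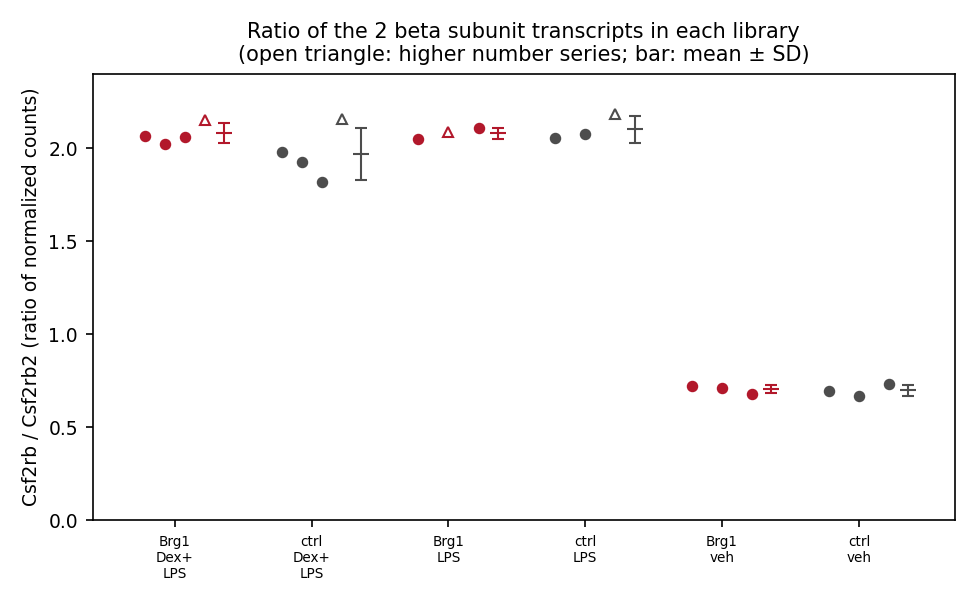
Ratio of Csf2rb to Csf2rb2 normalized counts in each library, by group, with the mean and SD as bars, Brg1 siRNA in red and control siRNA in grey; open triangles are libraries with the higher label numbers. The vehicle libraries lie at about 0.7 and all LPS and Dex+LPS libraries above 1.8, with overlapping siRNA groups under each treatment.

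The LPS comparison asked how each gene differed between LPS and vehicle cells within an siRNA arm. LPS was accompanied by large rises of all 3 ligands and by rises of Csf2rb and Csf3r in both arms. Csf1r and Csf2rb2 fell in the control siRNA arm. With Brg1 siRNA, 5 of the 8 genes rose and 0 fell in limma, where 72.8% of all genes tested passed, 35.4% higher and 37.4% lower; edgeR called 1 lower (Csf2rb2), and DESeq2 and an unadjusted p under 0.05 in limma called 0. With control siRNA, 5 rose and 2 fell, where 73% of all genes tested passed, 36% higher and 37% lower. Of the rises, those of Csf2 and Csf3 had to pass, since these genes entered the test only through libraries that had received LPS.

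Csf1 was 75.4-fold higher under LPS than in vehicle with Brg1 siRNA (log2 fold change 6.21, SE 0.13, adjusted p 4.57e-18 in limma) and 39.7-fold higher with control siRNA (5.31, SE 0.13, limma adjusted p = 4.83e-17). For Csf2 with Brg1 siRNA, 8082 reads under LPS stood against 0 in vehicle, which makes it at least 4019-fold higher when 3 reads over the group are taken as the floor. With control siRNA, 1611 Csf2 reads under LPS stood against 1 read in vehicle, a ratio of 2127 with a 95% counting interval of 381 to 84047. The vehicle values thus set no more than a lower limit to the size of the Csf2 response. Csf3 was at least 187-fold higher under LPS than in vehicle with Brg1 siRNA (376 reads against 0) and at least 99.0-fold higher with control siRNA (225 reads against 0). These floors and intervals cover counting error only. Of 8 fibroblast markers 4 had a row and only Pdgfrb was tested; it was called higher under LPS with both siRNAs and made up nearly all of the list's sum under LPS. That sum was 859.8 to 1051 normalized counts under LPS against 2.392 to 3.910 in vehicle with Brg1 siRNA, and 958.3 to 1027 against 1.657 to 2.621 with control siRNA. Pdgfrb alone averaged 948.7 ± 93.3 against 2.171 ± 0.533 with Brg1 siRNA and 996.8 ± 34.7 against 2.263 ± 0.528 with control siRNA (SD, n = 3 each). Dcn was at 0 in all LPS and vehicle groups, and Thy1 was at 0 under LPS with Brg1 siRNA. Of 4 endothelial markers 3 had a row and only Kdr was tested; it was called higher under LPS with both siRNAs. Their sum, nearly all of it Kdr, was 1115 to 1353 against 616.2 to 701.7 with Brg1 siRNA and 1416 to 1610 against 310.2 to 356.3 with control siRNA. Their part in the rise of the ligands was not tested.

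Among the receptors, Csf2rb was 2.78-fold higher under LPS than in vehicle with Brg1 siRNA (log2 fold change 1.47, SE 0.05, adjusted p 1.70e-14 in limma) and 2.47-fold higher with control siRNA (1.30, SE 0.05, limma adjusted p = 1.11e-13). Csf3r was 2.33-fold higher with Brg1 siRNA (1.22, SE 0.09, adjusted p 4.80e-10 in limma) and 3.79-fold higher with control siRNA (1.92, SE 0.09, limma adjusted p = 6.41e-13). With control siRNA, Csf1r was 1.38-fold lower under LPS (-0.46, SE 0.06, adjusted p 3.52e-06 in limma) and Csf2rb2 was 1.22-fold lower (-0.29, SE 0.05, limma adjusted p = 2.16e-05). With Brg1 siRNA neither was called: the 95% interval was -0.19 to 0.08 for Csf1r and -0.19 to 0.01 for Csf2rb2. Csf2ra was called in neither arm, with intervals of -0.01 to 0.59 with Brg1 siRNA and -0.36 to 0.25 with control siRNA. Without Brg1 siRNA LPS replicate 2, which has the higher label number, Csf2ra passed as higher (0.43, adjusted p 0.0142 in limma) and Csf2rb2 as lower (-0.12, limma adjusted p = 0.0485) with Brg1 siRNA; Csf2ra also passed without control siRNA Dex+LPS replicate 4 (limma adjusted p = 0.0329). Under plain library totals the median of all genes tested moved to -0.72 with Brg1 siRNA and -0.61 with control siRNA. In that scaling the share of calls that were higher was 23.2% with Brg1 siRNA, against 48.7% with the authors' size factors, and 26.2% with control siRNA, against 49.3%. Csf1r, Csf2rb2 and Csf2ra then passed as lower with Brg1 siRNA (log2 fold change -0.73, -0.77 and -0.39), the first 2 within 0.1 of that median, and Csf2ra with a direction opposite to its 0.29 under the authors' size factors. With control siRNA Csf2ra then passed as lower as well (-0.64, limma adjusted p = 0.000322), close to that arm's median of -0.61. All 8 genes were thus called in each arm, 5 higher and 3 lower. Of the 12061 genes tested, 9547 were called with Brg1 siRNA and 9284 with control siRNA in that scaling.

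The dexamethasone comparison asked how each gene differed between Dex+LPS and LPS alone. Csf2 fell to a small part of its LPS level, and Csf3r fell to values below those of every vehicle library of the same arm. Csf3 rose in the control siRNA arm, and the mean of Csf1 stayed within 1.32-fold of its LPS mean in both arms. With Brg1 siRNA, 6 of the 8 genes fell and 0 rose in limma, where 44.4% of all genes tested passed, 21.3% higher and 23% lower; at an unadjusted p under 0.05, and in edgeR and DESeq2, 0 rose too. With control siRNA, 4 fell and 2 rose, where 48.7% of all genes tested passed, 23.4% higher and 25.2% lower. The LPS libraries serve both this comparison and the LPS comparison. Markers of other cell types also differed. Kdr, the endothelial marker tested, was called lower under Dex+LPS in both arms, and the endothelial sum was 173.1 to 202.5 normalized counts under Dex+LPS against 1115 to 1353 under LPS with Brg1 siRNA, and 95.11 to 194.8 against 1416 to 1610 with control siRNA. Pdgfrb was called lower in both arms too, with a fibroblast sum of 499.5 to 585.7 against 859.8 to 1051 with Brg1 siRNA and of 604.9 to 818.0 against 958.3 to 1027 with control siRNA. The neutrophil sum was higher, at 549.4 to 636.0 against 339.9 to 352.7 with Brg1 siRNA and 403.2 to 532.2 against 281.8 to 329.7 with control siRNA; of the 7 markers tested, limma called 2 higher and 3 lower with Brg1 siRNA, and 2 higher and 2 lower with control siRNA. Their part in the Dex results was not tested.

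Csf2 was 103-fold lower under Dex+LPS than under LPS with Brg1 siRNA (log2 fold change -6.64, SE 0.22, adjusted p 8.65e-14 in limma) and 89.3-fold lower with control siRNA (-6.30, SE 0.22, limma adjusted p = 7.23e-14). It still lay above vehicle under Dex+LPS, at least 38.8-fold with Brg1 siRNA and 23.8-fold with control siRNA (95% counting interval 3.94 to 970). Csf3 was 2.12-fold higher under Dex+LPS than under LPS with control siRNA (1.08, SE 0.22, limma adjusted p = 0.000426). With Brg1 siRNA, Csf3 differed by -0.07 with a 95% interval of -0.52 to 0.39 and was not called. Csf1 was 1.32-fold lower with Brg1 siRNA (-0.40, SE 0.12, adjusted p 0.0107 in limma) and was not called with control siRNA (-0.07, 95% interval -0.32 to 0.18). The ligands therefore went different ways: Csf2 fell in both arms, and Csf3 rose in the control arm. Csf1 was called lower in the Brg1 siRNA arm only, but the interaction test called no difference between the arms for it (-0.33, limma adjusted p = 0.363).

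Csf3r was 3.79-fold lower under Dex+LPS than under LPS with Brg1 siRNA (log2 fold change -1.92, SE 0.08, adjusted p 2.08e-12 in limma) and 5.04-fold lower with control siRNA (-2.33, SE 0.08, limma adjusted p = 8.50e-14). Csf2rb fell by 0.49 on the log2 scale with Brg1 siRNA (SE 0.05, adjusted p 2.26e-07 in limma) and was 1.26-fold lower with control siRNA (-0.34, SE 0.05, limma adjusted p = 1.54e-05). Csf2rb2 fell by 0.48 on the log2 scale with Brg1 siRNA (SE 0.04, adjusted p 4.95e-08 in limma) and was 1.18-fold lower with control siRNA (-0.24, SE 0.04, limma adjusted p = 0.000155). Csf1r was 1.24-fold higher with control siRNA (0.31, SE 0.06, adjusted p 0.000290 in limma) and was not called with Brg1 siRNA (-0.01, 95% interval -0.14 to 0.11). Csf2ra was lower with Brg1 siRNA (-0.36, SE 0.13, limma adjusted p = 0.0393), a call that was lost without replicate 1 or 4 of Dex+LPS (0.0694 and 0.0965) or replicate 1 or 3 of LPS (0.163 and 0.149). With the replicate number as a block, the limma adjusted p for Csf2ra was 0.0793.

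Several of these responses depended on the scaling. Under plain library totals the median of all genes tested moved to 0.31 with Brg1 siRNA and 0.28 with control siRNA. The share of calls that were higher was then 81.4% with Brg1 siRNA, against 48.1% with the authors' size factors, and 76.2% with control siRNA, against 48.2%. In that scaling the falls of Csf1 (-0.07) and Csf2ra (-0.02) with Brg1 siRNA and of Csf2rb (-0.04) with control siRNA were not called, and Csf2rb2 with control siRNA had the opposite sign (0.06, limma adjusted p = 0.329). Csf1r with Brg1 siRNA then passed as higher (0.32, limma adjusted p = 0.000716), next to the moved median of 0.31.

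**Figure D4:**
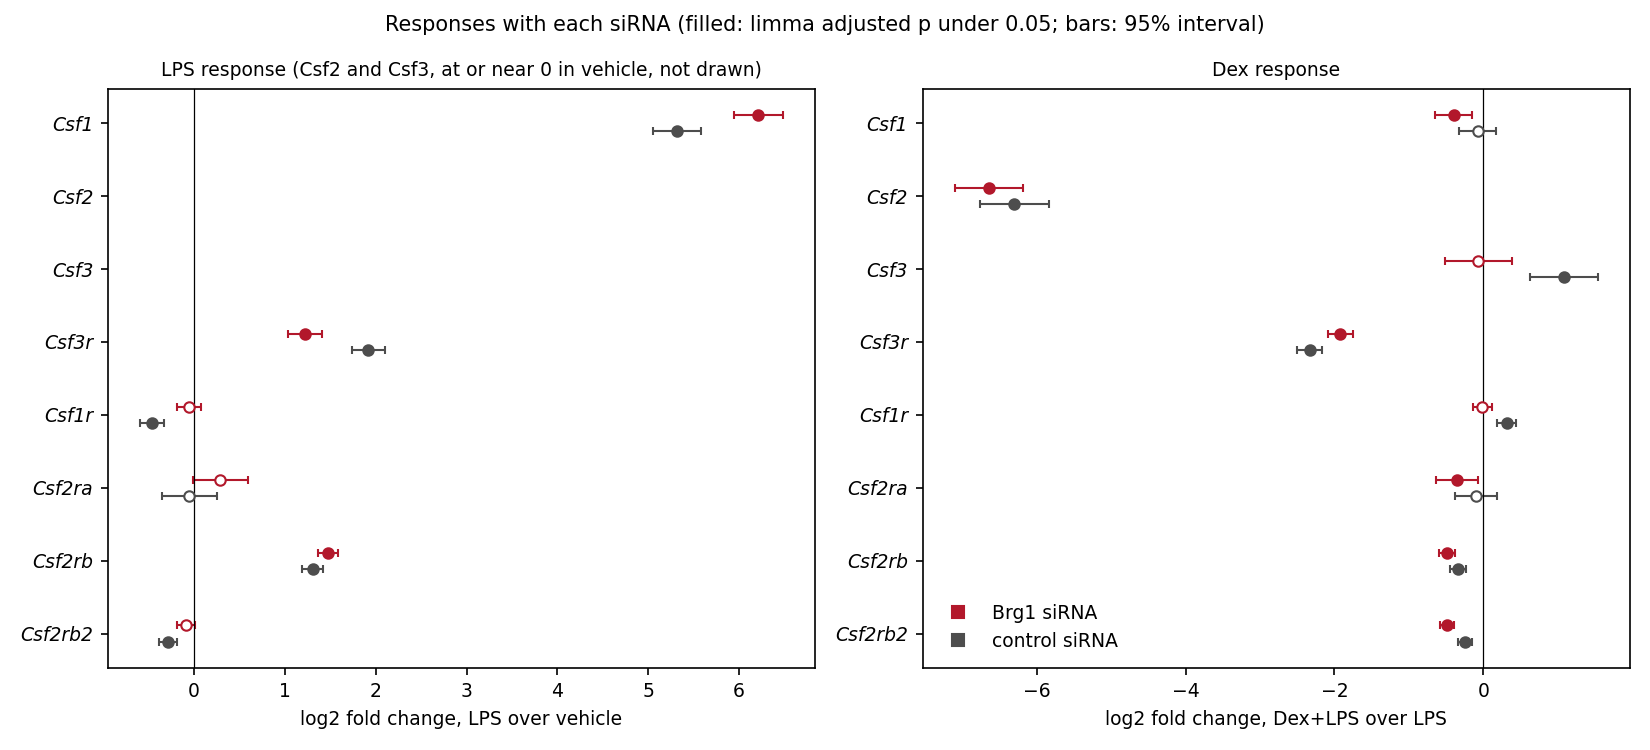
Log2 fold changes of LPS over vehicle (left, without Csf2 and Csf3, whose vehicle values were at or next to 0) and of Dex+LPS over LPS (right), with Brg1 siRNA in red and control siRNA in grey; bars are 95% intervals and filled points had a limma adjusted p under 0.05. Csf1 has the largest value in the left panel, at 6.21 with Brg1 siRNA, and Csf2 the lowest in the right panel, at -6.64 with Brg1 siRNA.

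Whether the knockdown difference itself changed with treatment was tested as an interaction in the same limma fit. Between LPS and vehicle, the knockdown difference was higher under LPS for Csf1 (log2 difference 0.90, SE 0.18, adjusted p = 0.00237) and for Csf1r (0.41, SE 0.09, limma adjusted p = 0.00559), and lower under LPS for Csf3r (-0.70, SE 0.12, limma adjusted p = 0.000911). These are 3 of the 6 genes with a usable value, 2 higher and 1 lower, where 11.4% of all genes tested passed, 6.39% higher and 5.05% lower. The Csf1r difference was not called under plain library totals (0.31, limma adjusted p = 0.0628). For Csf2rb2 it was 0.20 and was not called (limma adjusted p = 0.0596), although it passed without control siRNA Dex+LPS replicate 2 or 3 (limma adjusted p = 0.0348 and 0.0438). Csf2 and Csf3 give no interpretable value here, because both siRNA groups were at or next to 0 in vehicle.

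Between Dex+LPS and LPS, the knockdown difference was lower under Dex+LPS for Csf3 (-1.15, SE 0.30, limma adjusted p = 0.0415), Csf1r (-0.33, SE 0.08, adjusted p 0.0375 in limma) and Csf2rb2 (-0.24, SE 0.06, limma adjusted p = 0.0315). These are 3 of the 8 genes lower and 0 higher, where 3.97% of all genes tested passed, 2.75% higher and 1.22% lower; at an unadjusted p under 0.05 in limma 1 was higher (Csf3r), which DESeq2 called and edgeR did not. All 3 calls were close to the threshold and depended on single libraries: over the 29 alternatives the limma, edgeR or DESeq2 adjusted p ran from 0.00599 to 0.119 for Csf3, from 0.000912 to 0.118 for Csf1r and from 0.00117 to 0.163 for Csf2rb2. With the number series as a term in the limma fit, the adjusted p was 0.00599 for Csf3, 0.000912 for Csf1r and 0.0171 for Csf2rb2. Leaving out single libraries gave between 0 and 3 called genes. In limma 0 were called without control siRNA LPS replicate 2 or 3, Brg1 siRNA LPS replicate 2, or Brg1 siRNA Dex+LPS replicate 1, 2 or 3, and 1 was called without Brg1 siRNA LPS replicate 1. The Csf3 call was lost without any 1 of the 6 LPS libraries, replicate 1, 2 or 3 of Dex+LPS with Brg1 siRNA, or replicate 2 or 4 of Dex+LPS with control siRNA, with limma adjusted p from 0.0509 to 0.119. The Csf1r call was lost without any 1 of the control siRNA LPS libraries, Brg1 siRNA LPS replicate 2, Brg1 siRNA Dex+LPS replicate 1, 2 or 3, control siRNA Dex+LPS replicate 4 or any 1 of the Brg1 siRNA vehicle libraries, with limma adjusted p from 0.0515 to 0.106. The Csf2rb2 call was lost without control siRNA LPS replicate 2 or 3, Brg1 siRNA LPS replicate 1 or 2, Brg1 siRNA Dex+LPS replicate 1, 2 or 3, or control siRNA Dex+LPS replicate 3, with limma adjusted p from 0.0513 to 0.0922. For Csf2 the difference was -0.34 and was not called (limma adjusted p = 0.661). With a pseudocount of 5 it passed at -0.78 (limma adjusted p = 0.0254). Csf2 averaged 6.734 under Dex+LPS with control siRNA, close to that pseudocount, so the size of the difference depends on the pseudocount. The authors' deposited log2 fold changes of the Csf2 knockdown were 2.432 under LPS and 2.229 under Dex+LPS. For Csf1 the interaction difference was -0.33 (limma adjusted p = 0.363), and for Csf3r 0.41 (limma adjusted p = 0.0537). Csf3r passed without control siRNA LPS replicate 1 (0.0472) or control siRNA Dex+LPS replicate 2 or 4 (limma adjusted p = 0.0292 and 0.0349).

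Within each gene, the order of the 6 groups set the members apart. Csf3r and Csf2rb were the receptor genes in which no neighbours in the order overlapped. Csf3r was highest under LPS with Brg1 siRNA (3623 ± 272 normalized counts), then under LPS with control siRNA (2177 ± 151), in vehicle with Brg1 siRNA (1553 ± 102), under Dex+LPS with Brg1 siRNA (956.0 ± 48.8), in vehicle with control siRNA (574.7 ± 36.3) and under Dex+LPS with control siRNA (432.3 ± 43.1; SD, n = 3 or 4). For Csf2rb the LPS groups came first, then the Dex+LPS groups and then vehicle, with Brg1 siRNA below control siRNA in each pair. The difference within the LPS pair was not called (limma adjusted p = 0.258). For Csf2ra all neighbours in the order overlapped, with group means from 1589 ± 123 to 2049 ± 333 normalized counts. For Csf1r, vehicle with control siRNA was highest (29199 ± 259) and LPS with control siRNA lowest (21198 ± 337), and the 4 groups between overlapped with their neighbours.

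Per kilobase of exon, which allows levels to be set beside each other between genes, Csf1r had the highest group mean of the 8 in every group. It had 4100 and 4566 normalized counts per kilobase under Dex+LPS (Brg1 and control siRNA), 4136 and 3671 under LPS, and 4287 and 5057 in vehicle. Under LPS with Brg1 siRNA, Csf2 reached 4054 normalized counts per kilobase, against 752 with control siRNA. Its place next to Csf1r in that group differed between libraries: Csf2 stood at 4142, 3552 and 4465 per kilobase and Csf1r at 3945, 4510 and 3952 in replicates 1, 2 and 3, so that Csf2 was above Csf1r in replicates 1 and 3 and below it in replicate 2, which has the higher label number. Csf1 had 1024 per kilobase under LPS with Brg1 siRNA and 550 with control siRNA, and Csf3 had 108 and 59.0. Csf3 was the least abundant ligand under LPS in both arms, while under Dex+LPS the least abundant ligand was Csf2, at 39.4 with Brg1 siRNA and 8.42 with control siRNA.

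The 4 libraries with the higher label numbers differed from the rest of their groups in the same direction for several of the 8 genes. Over all genes tested, the deviations of these libraries from their group means correlated with each other in all 6 pairs (0.207 to 0.406), against a median of -0.002 over pairs of libraries with other replicate numbers. Csf2ra lay below all other libraries of its group in all 4, by -0.21 and -0.53 on the log2 scale under Dex+LPS (Brg1 and control siRNA) and by -0.43 and -0.33 under LPS. Csf3 lay above the mean of the others by 0.58 and 0.44 under Dex+LPS and by 0.51 and 0.24 under LPS, the last within the range of its group. Csf1r and Csf2rb lay above the others in all 4. Each LPS and Dex+LPS group holds 1 such library, so the knockdown comparisons hold equal numbers of them in both siRNA arms. Equal numbers need not cancel the offset: for Csf1r under LPS it was 0.192 with Brg1 siRNA and 0.0275 with control siRNA. The comparison of LPS with vehicle is not balanced for the series. In the Dex comparison, 1 library of 4 under Dex+LPS stands against 1 of 3 under LPS. Without these 4 libraries limma called 8 of the 8 genes in the LPS comparison with Brg1 siRNA (6 higher and 2 lower). With these libraries it called 5. Of the 12061 genes tested, 8735 were called without these libraries and 8786 with them. Csf2 and Csf3 had to pass, since they entered the test only through libraries that had received LPS.

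**Figure D5:**
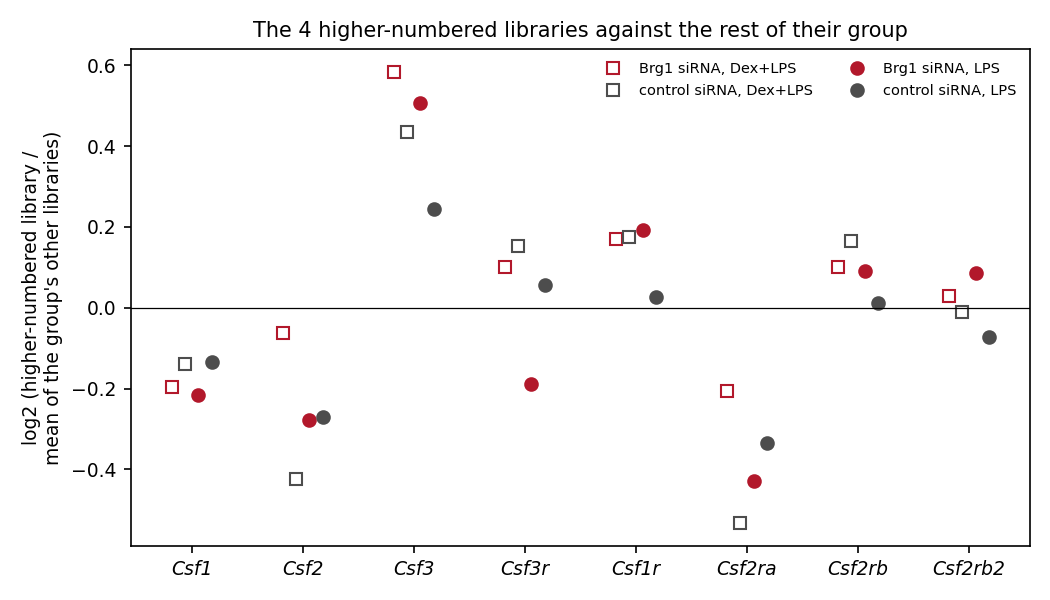
Log2 ratio of the library with the higher label number to the mean of the other libraries of its group, for each gene, in the 4 groups that hold such a library: squares for Dex+LPS, circles for LPS, red for Brg1 siRNA and grey for control siRNA. Csf3 points lie above 0 (0.24 to 0.58) and Csf2ra points below 0 (-0.53 to -0.21) in all 4 groups.

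Genes around the receptors were described by lists. Of 21 partners of CSF1R signalling, all tested, limma called 5 higher and 2 lower with Brg1 siRNA under Dex+LPS, 4 higher and 8 lower under LPS, and 6 higher and 3 lower in vehicle. Over all genes tested, 34.3% were called under Dex+LPS (19% higher and 15.3% lower), 33.1% under LPS (17.3% and 15.8%) and 20.1% in vehicle (9.39% and 10.8%), so the count under Dex+LPS is close to this background. The list's median log2 difference was 0.01, -0.23 and 0.05 in that order, beside medians of all genes tested of 0.01, 0.01 and 0.00. Under LPS, Mapk3, the kinase ERK1, rose with a mean of 2414 ± 34.4 normalized counts with Brg1 siRNA and 1366 ± 33.8 with control siRNA (log2 fold change 0.82, limma adjusted p = 4.43e-09). Pik3cd, a phosphoinositide 3-kinase subunit, fell, at 1325 ± 86.3 and 2477 ± 91.4 (-0.90, limma adjusted p = 1.37e-07). Il34, the second ligand of CSF1R, fell as well, at 9.643 ± 3.16 and 39.56 ± 10.3 (-1.95, limma adjusted p = 0.0169; SD, n = 3 each). In vehicle the phosphatase gene Ptpn6 rose, at 7149 ± 273 with Brg1 siRNA and 5665 ± 116 with control siRNA, and the Src family kinase gene Fyn fell, at 615.1 ± 26.9 and 871.1 ± 32.5 (limma adjusted p = 0.000119 and 0.00135). Under plain library totals the list's counts of higher and lower calls were 4 and 7 under Dex+LPS. They were 2 and 11 under LPS, and 5 and 5 in vehicle. Of the 12061 genes tested, 4500, 4253 and 2565 were called in that scaling, of which 36.7%, 31.4% and 37.8% were higher. The median of all genes tested was then -0.09, -0.12 and -0.03.

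The JAK-STAT pathway carries the signal of the beta chain receptors and of CSF3R. Of 16 such genes, 15 were tested, and limma called 5 higher and 0 lower with Brg1 siRNA under Dex+LPS, 3 higher and 1 lower under LPS, and 2 higher and 1 lower in vehicle, where 34.3%, 33.1% and 20.1% of all genes tested were called. The median log2 differences were 0.42, 0.08 and 0.18. Socs3, an inhibitor of CSF3R signalling, fell in vehicle, at 7.822 ± 0.15 normalized counts with Brg1 siRNA and 17.00 ± 4.84 with control siRNA (SD, n = 3 each; limma adjusted p = 2.87e-05). Mcl1, a survival gene, rose under LPS, at 20866 ± 2982 with Brg1 siRNA and 11267 ± 1237 with control siRNA (SD, n = 3 each; limma adjusted p = 0.000107). In the LPS comparison, 13 of the 15 rose with Brg1 siRNA and 14 with control siRNA, with 0 falling in either arm, where 35.4% and 36% of all genes tested rose. With dexamethasone, 0 rose and 11 fell with Brg1 siRNA, where 23% of all genes tested fell, and 1 rose and 11 fell with control siRNA, where 25.2% fell. With scaling by plain library totals, 11 rose and 1 fell in the LPS comparison with Brg1 siRNA, and 12 and 1 with control siRNA. With dexamethasone, 2 rose and 10 fell in each arm in that scaling. Of the calls over all genes, 23.2% and 26.2% were then higher in the LPS comparison (Brg1 and control siRNA). The shares with dexamethasone were 81.4% and 76.2%.

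Transcripts such as that of GM-CSF carry AU-rich elements, which decay factors such as ZFP36 and its relatives bind. The list held 10 genes for factors of either the decay or the stability of AU-rich transcripts. Of these, limma called 4 higher under Dex+LPS, 3 higher under LPS and 0 in vehicle with Brg1 siRNA, and 0 lower under any treatment. Of all genes tested, 19% were higher under Dex+LPS, 17.3% under LPS and 9.39% in vehicle, and 34.3%, 33.1% and 20.1% were called in either direction, close to the shares of the list under Dex+LPS and LPS. With plain library totals 1 was lower under Dex+LPS and 1 in vehicle, where the median of all genes tested was -0.09 and -0.03. Of the calls over all genes in that scaling, 36.7% were higher under Dex+LPS and 37.8% in vehicle. At an unadjusted p under 0.05 in limma, 1 was higher and 2 were lower in vehicle, where edgeR and DESeq2 called 0, and 1 was lower under Dex+LPS, as in edgeR and DESeq2. The median log2 differences were 0.28, 0.19 and -0.07. Zfp36l1 rose under Dex+LPS, at 447.8 ± 27.7 normalized counts with Brg1 siRNA and 63.37 ± 9.28 with control siRNA (SD, n = 4 each; log2 fold change 2.81, limma adjusted p = 8.91e-11). Under LPS it rose too, at 41.14, 47.74 and 66.05 normalized counts with Brg1 siRNA and 12.40, 12.73 and 14.97 with control siRNA (log2 fold change 1.85, limma adjusted p = 1.01e-07).

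Of 16 transcription factor genes known to act on the promoters of these ligands and receptors, limma called 7 higher and 2 lower under Dex+LPS, 6 higher and 2 lower under LPS, and 0 higher and 3 lower in vehicle. Of all genes tested, 34.3%, 33.1% and 20.1% were called under these treatments (19%, 17.3% and 9.39% higher), so the count in vehicle is close to the background. The median log2 differences were 0.26, 0.15 and -0.04. The NF-kB subunit genes Rela and Rel rose under LPS, with Rela at 3853 ± 194 with Brg1 siRNA and 2331 ± 182 with control siRNA and Rel at 7153 ± 326 and 4916 ± 267 (SD, n = 3 each; limma adjusted p = 8.04e-06 and 0.00203). Fos, an AP-1 subunit gene, fell under LPS, at 38.10 ± 14.5 and 446.3 ± 41.5 (log2 fold change -3.57, limma adjusted p = 1.18e-10). Cebpa, a myeloid C/EBP factor, fell under Dex+LPS, at 578.4 ± 35.8 and 1032 ± 126 (SD, n = 4 each; limma adjusted p = 7.83e-06). Under plain library totals the counts were 4 higher and 2 lower under Dex+LPS, 2 and 2 under LPS, and 0 and 4 in vehicle. Of the calls over all genes in that scaling, 36.7%, 31.4% and 37.8% were higher, in that order. Of the partners of the beta common chain, Il3ra, the interleukin-3 binding chain, was the only gene tested. It had 191.8 ± 11.1 normalized counts with Brg1 siRNA and 176.1 ± 21.1 with control siRNA in vehicle (SD, n = 3 each), and limma, edgeR and DESeq2 called it under none of the 3 treatments.

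The genes whose log2 levels followed each member most closely over the 20 libraries are given as a description; the libraries share the treatments, so a high Pearson r is set largely by which groups are high. Csf1 was followed most closely by Ddhd1 (r = 0.997), Pde4b (0.997) and Nlrp3 (0.996), and Csf3 by Icosl (0.997), Sdc4 (0.997) and Rcsd1 (0.994). The nearest to Csf2 were Map2k1 (0.990), Ccl2 (0.983) and Trim26 (0.982). The nearest to Csf3r were Phf11a (0.985), Cd86 (0.981) and Mapkapk3 (0.975), and among the nearest to Csf2rb were Src (0.993) and Slc2a1 (0.989). For Csf2rb2 they were Lpl (0.947), Diaph1 (0.942) and Slc9a7 (0.941). Csf1r and Csf2ra had no gene as close, with Map11 (0.904), Wdr6 (0.889) and Rnls (0.862) for Csf1r and Rtn3 (0.805), Eif3h (0.802) and Ntan1 (0.799) for Csf2ra. Among the 8 genes themselves, Csf1 and Csf3 were closest (r = 0.985 over 20 libraries), and the receptor Csf3r and the ligand Csf2 had r = 0.719.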

How the data were processed

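RNA was sequenced from 20 libraries prepared with a stranded mRNA kit, per the labels' protocols. Salmon 1.4.0, DESeq2, R 4.1.0 and the builds mm10 and GRCm38.p6 are named in the submitters' processing notes, without roles. The deposited table holds normalized read counts per gene, a signal that is divided by a size factor per library, per the file headers. It also holds the authors' log2 fold changes with their standard errors, a score in log2 units, and the authors' deposited p-values, adjusted. Dividing the signal by the size of 1 read gave whole reads for 99.95% of values within 0.01 and for 100.0% within 0.06.

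The members and the gene lists were chosen with earlier results of these data known. Groups came from the labels. Values were analysed as log2(normalized count + 1), since the file holds no raw counts, with limma 3.58.1 (trend) in R 4.3.3. All 6 groups entered 1 fit, over the 12061 of 17787 genes with at least 10 normalized counts in at least 3 libraries. Benjamini-Hochberg adjustment ran over all genes tested, with a threshold of 0.05. The 9 comparisons were the knockdown within 3 treatments, the LPS and the Dex response within 2 arms each, and 2 interactions. On the recovered reads, edgeR 4.0.16 called 4156 genes for the knockdown under Dex+LPS, 3868 under LPS and 2503 in vehicle, against 4131, 3995 and 2430 in limma. DESeq2 1.42.0 was run as well. The limma fit was checked on simulated data.

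All 8 genes are named. Of the lists, up to 2 rises and 2 falls of largest log2 fold change among the called genes could be named, and for likeness the 3 genes with the highest r. Some genes that this rule names are not reported here. The labels state no pairing by replicate number, and the main fit used none. Deviations of same-numbered libraries from their group means had a median correlation of -0.003 over 46 pairs, with 2 pairs over 0.1. The libraries of the higher number series carry unlike replicate numbers between groups, so these correlations cannot exclude a pairing.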

Additional observations from a re-analysis of the deposited data

Results flagged for a closer look

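Over both interaction tests in limma, the knockdown difference was called as changed for 5 of the 8 genes. Csf2 and Csf3 had no usable value between LPS and vehicle. Of all genes tested, the knockdown difference was called as changed for 11.4% between LPS and vehicle and for 3.97% between Dex+LPS and LPS. Between LPS and vehicle, it differed by 0.900 on the log2 scale for Csf1 (limma adjusted p = 0.00237), by 0.407 for Csf1r (0.00559) and by -0.699 for Csf3r (0.000911). Csf1 was called with Brg1 siRNA under LPS and not in vehicle, Csf3r was higher under both, and Csf1r was lower in vehicle and not called under LPS. Between Dex+LPS and LPS, the knockdown difference differed by -1.149 for Csf3 (limma adjusted p = 0.0415), by -0.325 for Csf1r (0.0375) and by -0.243 for Csf2rb2 (0.0315), and each of these calls was lost in 12 or more of the 29 alternatives. No library stood far enough from its group to be marked among the 16 sets of 4 values checked. These sets were the Dex+LPS groups only, and no LPS or vehicle library was checked in this way.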

How the results depend on the processing

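Of 1972 values (68 member results under 29 alternatives each), 1852 kept their direction and their side of the threshold, 58 no longer passed, 42 newly passed and 20 turned direction; 40 of the 68 results kept both throughout. Leaving out 1 library at a time gave 5 to 6 called genes for the knockdown under Dex+LPS, 4 to 5 under LPS and 4 to 4 in vehicle. For the LPS response it gave 5 to 7 with Brg1 siRNA and 7 to 7 with control siRNA, and for the Dex response 5 to 6 and 6 to 6. For the interactions it gave 3 to 4 (LPS minus vehicle) and 0 to 3 (Dex+LPS minus LPS). Called genes in the LPS response with Brg1 siRNA numbered 5 (8786 over all genes tested). They numbered 8 under plain library totals (9547) and 8 without the higher number series (8735). The interaction of LPS minus vehicle had 3, against 6 with the number series as a term. That of Dex+LPS minus LPS had 3, against 0 in limma with no filter, 0 in limma with only the compared groups, 1 under plain library totals and 1 without the higher number series; edgeR called 2 and DESeq2 4. Under plain library totals, direction turned for Csf2ra in the LPS response with Brg1 siRNA (-0.391), for Csf1 (0.225), Csf2ra (0.201) and Csf2rb2 (0.056) in the Dex response with control siRNA, and for Csf3 (0.263) and Csf1r (0.321) in that with Brg1 siRNA. Csf1r there was also 0.009 without the higher number series and 0.016 in edgeR. Csf2ra in the LPS response with control siRNA was 0.070 with the number series as a term and 0.056 without that series. Without single libraries, turns ran from -0.200 to 0.096 (Csf1, vehicle knockdown), -0.188 to 0.027 (Csf2ra, Dex+LPS knockdown), -0.145 to 0.056 and -0.208 to 0.035 (Csf2ra, LPS and Dex responses, control siRNA), and -0.213 to 0.101 and -0.055 to 0.052 (Csf3 and Csf1r, Dex response, Brg1 siRNA); the cause was not tested. With the replicate number as a block, Csf1r passed for the knockdown under LPS (limma adjusted p = 0.0116) and Csf2ra for the LPS response with Brg1 siRNA (0.0428), Csf2ra no longer passed for the Dex response with Brg1 siRNA (0.0793), and Csf3r passed for the interaction of Dex+LPS minus LPS (0.0333); other calls of the 8 genes were unchanged by the block. The share of higher calls over all genes under plain library totals, against the authors' size factors, was 36.7% against 55.4% for the knockdown under Dex+LPS, 31.4% against 52.3% under LPS, and 38.1% against 55.9% for the interaction of LPS minus vehicle. Depth limits Csf2 and Csf3 in vehicle, where 1 read at most was counted per group.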
